A study of Mus musculus with 6 samples.

Results

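Transforming growth factor beta (TGF-beta) ligands and matricellular growth signals were examined in the ventricles of miR-499 transgenic mice. The set held 8 genes, namely the TGF-beta isoforms Tgfb1, Tgfb2 and Tgfb3, the related ligands Mstn and Inhba, and the matricellular genes Ctgf (now Ccn2), Cyr61 (now Ccn1) and Thbs1. They were taken as a list of names, and all 8 were measured among 19938 genes that had a probe set paired with exactly 1 gene symbol. Each gene had 1 such probe set. The mice were wild type (WT, 3 animals) or carried the transgene (labelled TG, line TG-17 of the study, 3 animals), and all ventricles were taken at postnatal day 17. In TG-17 a fragment around the mouse miR-499 precursor is driven by the Myh6 promoter, which is active in heart muscle cells, in FVB/NCrl mice, and the WT mice were littermates without it. The TG-17 mice come from 1 line, so an effect of the insertion site cannot be told apart from that of the microRNA. RNA of each mouse was hybridised to 1 Affymetrix mouse gene array, and the values are log2 units of normalized intensity.

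TGF-beta ligands are secreted as latent complexes held in the matrix, and integrins, proteases and thrombospondin 1 can release them. The active dimer binds paired type I and type II receptor kinases, which phosphorylate Smad2 and Smad3, and these enter the nucleus with Smad4. Myostatin and activin A use activin receptors and the same Smads. Ctgf and Cyr61 encode secreted CCN proteins that are transcribed in response to TGF-beta, serum response factor and the YAP-TEAD complex, and in the heart the pathway is best known for fibroblast activation and scar formation.

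The transgene encodes the mature strand miR-499-5p, shown because it is the agent that differs between the groups. It lies at chr2:155622893-155622913 on the plus strand of GRCm38.p6 (RefSeq), and capitals mark the seed, bases 2 to 8.
mmu-miR-499-5p: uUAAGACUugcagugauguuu
The probe set of Mir499 read 5.48, 5.34 and 5.68 in the WT mice and 9.31, 9.33 and 8.87 in the TG-17 mice, so each array carried the signal its label calls for.

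Promoter windows of 300 bases, from 250 before to 50 after the start in RefSeq, were found for 5 of the 8 genes (Tgfb1, Tgfb2, Mstn, Inhba and Cyr61). No such window was found for Tgfb3, Ctgf and Thbs1, so these genes could not be searched. The 5 windows were searched on both strands for GGAATG (bound by TEAD factors), CAGACA (Smad), TGACTCA (AP-1), GCGTGGGCG (Egr factors) and the CArG box (serum response factor), since the lists described further on hold genes of each of these factors. No window held more than 1 match, so no matches overlapped. The 4 matches are shown in 30 bases each, on the strand of the gene and with the match in capitals.
Cyr61, TEAD, chr3:145650071-145650100, minus strand: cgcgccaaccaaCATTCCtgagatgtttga
Tgfb1, Egr, chr7:25686870-25686899, plus strand: ccttggagccCGCCCACGCtaagatgaaga
Tgfb2, Smad, chr1:186706176-186706205, minus strand: ccttggtgatcaCAGACAgtgactactgca
Mstn, Smad, chr1:53061508-53061537, plus strand: ggtgacttgtgaCAGACAgggttttaacct
The Egr letters of Tgfb1 begin 122 bases before the start and the TEAD letters of Cyr61 begin 103 bases before it. Of 32851 windows of this length, 14.7% held the TEAD letters, 21.0% the Smad letters, 5.2% the AP-1 letters, 0.612% the Egr letters and 1.63% a CArG box. A match describes the letters of the window and no binding was measured.

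None of the 8 genes passed the test between TG-17 and WT ventricles. The largest differences were in the CCN genes, in opposite directions: Ctgf was 1.22-fold higher and Cyr61 1.19-fold lower in TG-17. Thbs1 had a mean 1.13-fold higher with overlapping groups, the 3 TGF-beta isoforms differed by 1.08-fold or less, and Mstn and Inhba had near equal means. The test was limma, fitted to all 35556 probe sets, with a log odds of change B above 0 taken as the call and adjusted p values by Benjamini and Hochberg. By this rule 0.366% of all probe sets were called, and 0.00562% passed an adjusted p under 0.05, the stricter rule, which none of the 8 passed. At an unadjusted p under 0.05 stood 1 of the 8 genes, Ctgf, against 15.5% of all probe sets. After a second quantile normalization this 1 gene was Cyr61 (unadjusted p = 0.0344 from limma) in place of Ctgf (unadjusted p = 0.0794 from limma). In 3 of the 8 the groups did not overlap, against 23.3% of all probe sets. The exact two-sided permutation test of 3 mice against 3 cannot go below 0.1, which it gave for these 3 genes, Ctgf, Cyr61 and Tgfb1. In whole ventricles fewer cells of a type and less RNA per cell cannot be told apart.

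**Figure D1:**
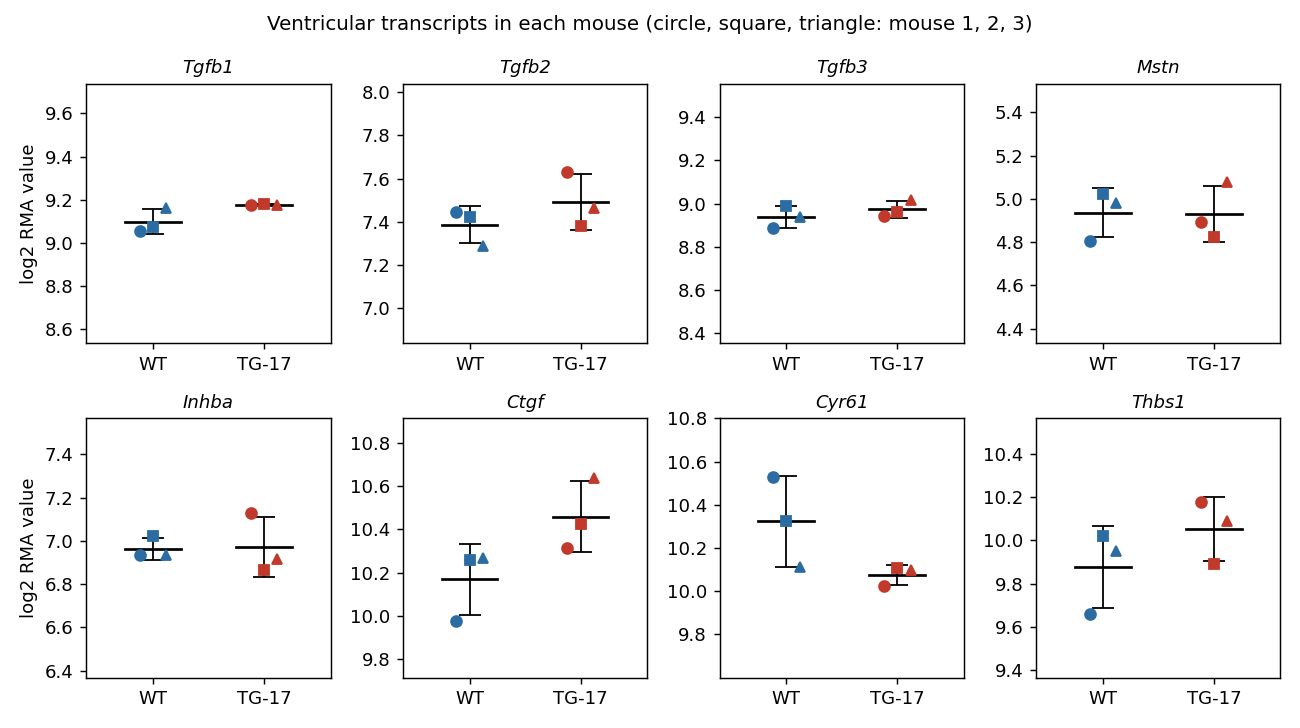
Log2 RMA values of the 8 genes by mouse, with 3 WT mice in blue and 3 TG-17 mice in red. Horizontal bars are group means and whiskers 1 SD, and every panel spans the same range on the log2 scale. All red points are higher than all blue points for Ctgf and Tgfb1 and lower for Cyr61, and the groups overlap for the other 5 genes.

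Ctgf encodes connective tissue growth factor, a matrix protein that binds TGF-beta and integrins. Its log2 values were 9.98, 10.26 and 10.27 in the WT mice and 10.32, 10.42 and 10.64 in the TG-17 mice. All TG-17 mice lay above all WT mice, and the gap between WT replicate 3 and TG-17 replicate 1 was narrow beside the spread within either group. The means were 10.17 ± 0.17 and 10.46 ± 0.17 (SD, n = 3 each), a log2 difference of 0.29 (standard error 0.12, 95% interval 0.0061 to 0.58). The unadjusted p from limma was 0.0465 and the adjusted p 0.316, so the difference did not pass over all probe sets. Its size exceeded that of 96.5% of genes. With a mouse left out the log2 difference was 0.20 to 0.36, and the unadjusted p from limma stayed under 0.05 only without TG-17 replicate 1.

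Cyr61 encodes the CCN protein that acts on endothelial and muscle cells through integrins and is itself induced as an immediate early gene. Its log2 values were 10.53, 10.33 and 10.11 in the WT mice and 10.02, 10.11 and 10.10 in the TG-17 mice. The TG-17 mice were close together, at the level of WT replicate 3, the lowest WT mouse, while the other 2 WT mice lay well above them. Mean values were 10.32 ± 0.21 in WT and 10.08 ± 0.046 in TG-17 (SD, n = 3 each). The log2 difference was -0.25 (standard error 0.11, 95% interval -0.51 to 0.018), with an unadjusted p of 0.0631 and an adjusted p of 0.347 from limma. Without WT replicate 1 it was -0.14, and without WT replicate 3 it was -0.35 (unadjusted p = 0.00776 and adjusted p = 0.256 from limma), the one mouse whose omission brought it under an unadjusted p of 0.05.

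Immediate early genes of the same arrays were set beside Cyr61, and Egr1 and Fos, shown here after their values were seen, had its order among the WT mice. Egr1, a zinc finger factor, read 9.07, 8.74 and 8.01 in the WT mice, and Fos, a subunit of AP-1, 8.91, 8.60 and 8.40, so WT replicate 1 was the highest and WT replicate 3 the lowest WT mouse for Egr1 and Fos as for Cyr61. Ier2, Dusp1, Fosb and Myc of the same list had this order too, and of these Myc had the higher mean in TG-17. The remaining genes of the list had another order, such as Egr2 at 7.18, 7.37 and 7.25 and Atf3 at 8.22, 8.67 and 8.80. The mean log2 value over the list was 8.77, 8.80 and 8.73 in the WT mice. In TG-17 the values were 7.35, 7.29 and 7.18 for Egr1 and 7.76, 7.80 and 7.63 for Fos. Of 21 genes of a list of serum response factor and immediate early genes, which does not hold Cyr61, 2 fell at B above 0 (Fos and Egr2). Over all genes 0.341% passed B above 0. With limma's unadjusted p under 0.05, 9 of the 21 were lower and 2 higher, against 8.76% lower and 6.65% higher over all genes. The 2 higher ones were Myc and Klf4, with log2 differences of 0.40 (standard error 0.13) and 0.33 (standard error 0.12), named after their values were seen. With arrays centred on their medians the list stood at 6 lower and 3 higher. After a second quantile normalization it stood at 10 lower and 2 higher. Srf had a log2 difference of 0.10 (standard error 0.057).

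Thbs1 encodes thrombospondin 1, which activates latent TGF-beta and is abundant in platelets. Its log2 values were 9.66, 10.02 and 9.95 in WT and 10.18, 9.89 and 10.09 in TG-17. WT replicate 1 was the lowest of the 6 mice, and the remaining WT mice lay within the range of TG-17. The means were 9.88 ± 0.19 and 10.05 ± 0.15 (SD, n = 3 each), and the log2 difference was 0.18 (standard error 0.12, 95% interval -0.12 to 0.47, adjusted p = 0.518 from limma). It was 0.066 without WT replicate 1.

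**Figure D2:**
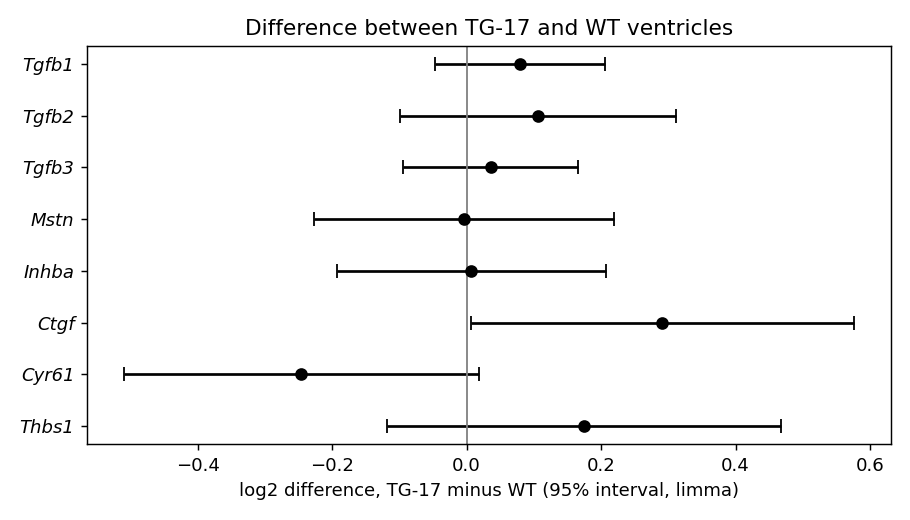
Log2 difference of TG-17 minus WT for the 8 genes, with limma's 95% interval. The interval of Ctgf lies just above 0, from 0.0061 to 0.58, that of Cyr61 reaches from -0.51 to 0.018, and the other intervals hold 0.

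Tgfb1, the isoform made by many cells of the heart and by leukocytes and platelets, read 9.06, 9.07 and 9.16 in WT and 9.18, 9.18 and 9.17 in TG-17. The TG-17 values were almost identical and lay just above the highest WT value. Means were 9.10 ± 0.057 and 9.18 ± 0.0035 (SD, n = 3 each), with a log2 difference of 0.080 (standard error 0.052, 95% interval -0.047 to 0.21, adjusted p = 0.495 from limma). This size was ordinary, since 48.1% of genes had a smaller one. Tgfb2, needed for valve and septum formation in the embryo, read 7.45, 7.42 and 7.29 in WT and 7.63, 7.38 and 7.47 in TG-17. TG-17 replicate 1 stood above the others and TG-17 replicate 2 within the WT range, and the log2 difference was 0.11 (standard error 0.085, 95% interval -0.099 to 0.31, adjusted p = 0.575 from limma). Tgfb3, the third isoform, read 8.89, 8.99 and 8.94 in WT and 8.94, 8.96 and 9.02 in TG-17. The groups were interleaved, with a log2 difference of 0.036 (standard error 0.054, 95% interval -0.094 to 0.17, adjusted p = 0.769 from limma).

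Mstn encodes myostatin, an inhibitor of muscle growth made mainly by skeletal muscle. Its probe set was dim, at 4.81, 5.02 and 4.98 in WT and 4.89, 4.82 and 5.08 in TG-17, below the lower quartile of every array (5.51 to 5.57). It was the one gene of the 8 that failed a filter at the median value of all probe sets. The log2 difference was -0.0040 (standard error 0.092, 95% interval -0.23 to 0.22, adjusted p = 0.987 from limma), and at such low signal a difference in the transcript may not be detectable. Of 7 skeletal muscle markers, 1 was lower at an unadjusted p under 0.05, and none with arrays centred on their medians or after a second quantile normalization. Their mean log2 value was 6.50 to 6.58 in WT and 6.42 to 6.43 in TG-17. Inhba encodes the subunit of activin A. It read 6.93, 7.02 and 6.93 in WT and 7.13, 6.87 and 6.92 in TG-17, so TG-17 held both the highest and the lowest mouse. The log2 difference was 0.0073 (standard error 0.082, 95% interval -0.19 to 0.21, adjusted p = 0.973 from limma).

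The mice differed in their content of platelet transcripts within both groups. The mean log2 value of 6 platelet markers was 7.44, 7.76 and 7.03 in WT and 7.83, 6.93 and 7.01 in TG-17. Ppbp, a platelet chemokine, ranged from 7.14 to 9.72 in WT and from 7.06 to 9.74 in TG-17. None of the 6 stood at an unadjusted p under 0.05 between the groups. TG-17 replicate 1 had the highest mean over these markers and was also the highest of the 6 mice for Inhba, Tgfb2 and Thbs1. WT replicate 2 had the next highest marker mean, and it was the next highest mouse for Inhba but not for Tgfb2 or Thbs1, where TG-17 replicate 3 was. The part of platelets in these values was not tested.

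The 8 genes differed in how much they varied between mice of the same group. Tgfb1 and Tgfb3 had pooled SDs within groups of 0.041 and 0.045, lower than those of most genes (percentiles 11.7 and 14.9 over all genes). Ctgf, Cyr61 and Thbs1 had pooled SDs of 0.17, 0.15 and 0.17, at percentiles 90.2, 86.6 and 91.3, against 0.085 for the median gene, so the matricellular genes were among the more variable ones. Tgfb2, Inhba and Mstn lay between, at 0.11, 0.11 and 0.12. WT replicate 1 was the lowest of the 6 mice for 5 of the 8 genes (Tgfb1, Tgfb3, Mstn, Ctgf and Thbs1) and the highest for Cyr61.

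**Figure D3:**
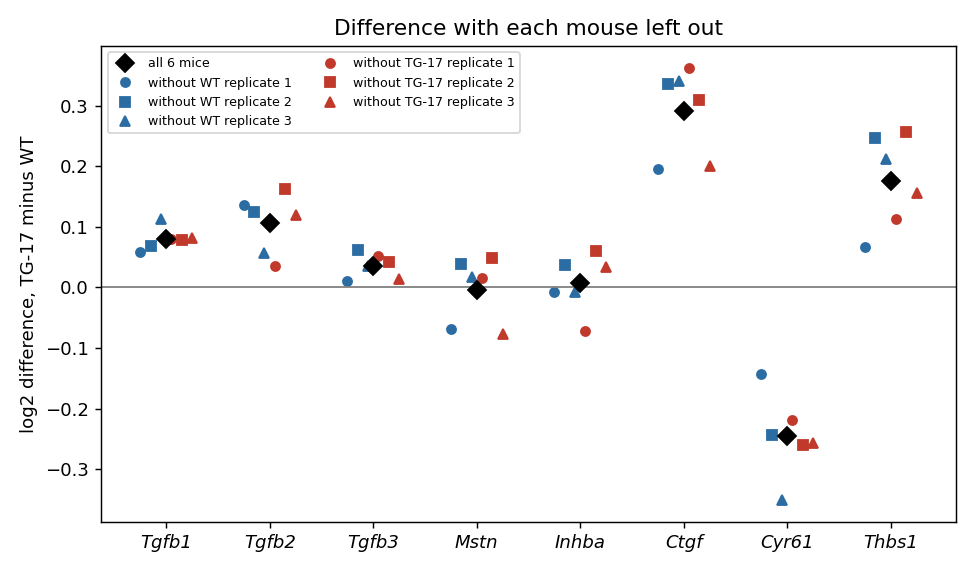
Log2 difference of TG-17 minus WT for the 8 genes with all 6 mice (black) and with each WT (blue) or TG-17 (red) mouse left out. Ctgf stays between 0.20 and 0.36, Cyr61 between -0.35 and -0.14, and Mstn and Inhba change sign.

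The genes with the pattern most like those of Ctgf and Cyr61, which had the smallest unadjusted p of the 8, were sought by Pearson's r over the 6 arrays. For Ctgf these were Nus1, Atad2 and Mynn, with r of 0.995, 0.993 and 0.992. For Cyr61 they were Naa40, Asb18 and Kiss1r, with r of 0.997, 0.994 and 0.994. The values are a description over 6 arrays that share 2 groups, and 138 genes had an r over 0.95 with Ctgf and 86 with Cyr61.

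Genes around the ligands were followed in 9 lists with 143 measured genes. Of these, 2 passed B above 0 (Fos and Egr2), and 32, or 22.4%, stood at an unadjusted p under 0.05 from limma, 14 higher and 18 lower, against 15.4% of all 19938 genes (6.65% higher and 8.76% lower), of which 0.341% passed B above 0. Over all genes the split was 1325 higher and 1746 lower, and it turned to 2577 higher and 805 lower when arrays were centred on their medians, so directions of small differences depend on the scaling. The median log2 difference of all genes was -0.018, or 0.033 after that centring. In the following lists, every gene given with a direction stood at an unadjusted p under 0.05 and none passed B above 0.

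**Figure D4:**
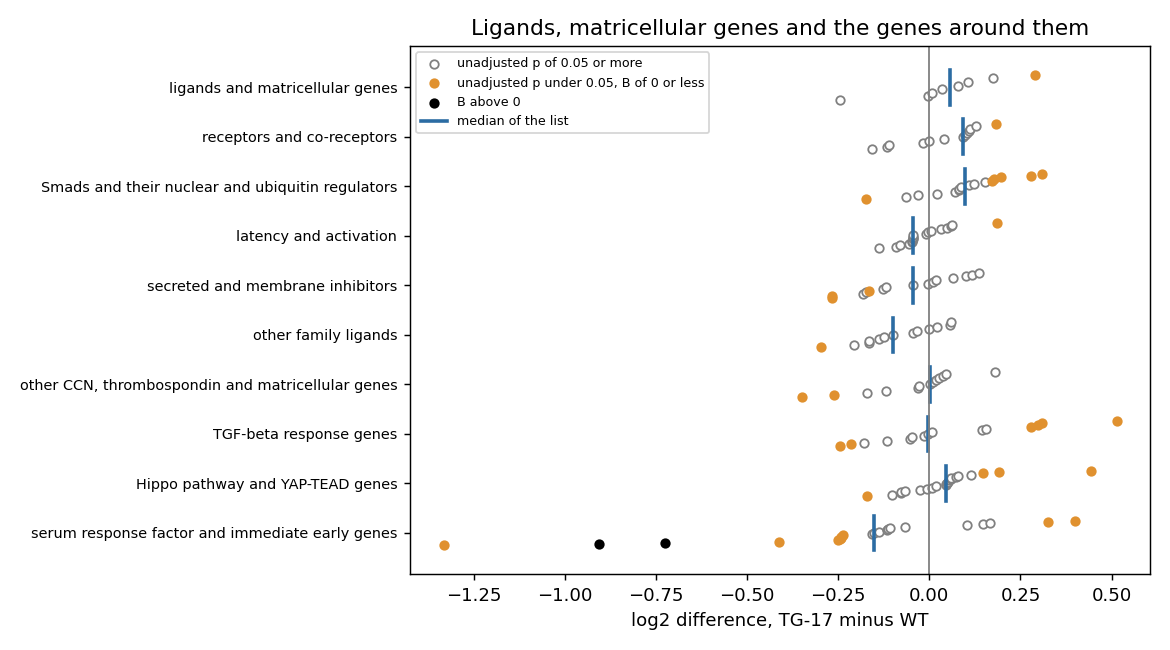
Log2 difference of TG-17 minus WT for each gene of the 8 studied genes and of 9 lists around them. Open points had an unadjusted p of 0.05 or more, orange points a smaller one with B of 0 or less, black points a B above 0, and blue lines mark list medians. The 2 black points are Fos and Egr2, and the Smad list has 5 orange points to the right and 1 to the left.

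Among 13 receptors and co-receptors, 1 was higher and none was lower, with 4 higher after centring and none after a second quantile normalization. Eng, the endothelial co-receptor endoglin, read 10.58, 10.53 and 10.70 in WT and 10.79, 10.82 and 10.75 in TG-17, a log2 difference of 0.18 (standard error 0.063, adjusted p = 0.277 from limma). It was followed by Acvr1 at -0.12 (standard error 0.052) and the BMP receptor Bmpr2 at 0.11 (standard error 0.054), which did not reach that p. The TGF-beta receptors Tgfbr1 and Tgfbr2 had log2 differences of 0.10 (standard error 0.077) and 0.041 (standard error 0.052), named after their values were seen.

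Among 16 Smads and their regulators, 5 were higher and 1 was lower, a share of 37.5%. Smad7, the inhibitory Smad that marks receptors for degradation, read 8.91, 8.79 and 8.79 in WT and 9.02, 9.23 and 9.18 in TG-17, a log2 difference of 0.31 (standard error 0.075, adjusted p = 0.229 from limma). Skil, which encodes the Smad corepressor SnoN, read 8.99, 9.04 and 9.14 in WT and 9.25, 9.37 and 9.38 in TG-17, a difference of 0.28 (standard error 0.066, adjusted p = 0.229 from limma). Nedd4l, a ubiquitin ligase for phosphorylated Smads, was higher by 0.20 (standard error 0.051). For each of these 3 genes the TG-17 mice lay above the WT mice, and the unadjusted p stayed under 0.05 with any mouse left out. The remaining ones were named after their values were seen. They were Zfyve9, the Smad anchor SARA, at 0.18 (standard error 0.049), the ubiquitin ligase gene Smurf2 at 0.17 (standard error 0.061) and the corepressor gene Tgif1 at -0.17 (standard error 0.050). Zfyve9 and Tgif1 likewise stayed under an unadjusted p of 0.05 from limma with any mouse left out, and Smurf2 in 2 of the 6 omissions. For Tgif1 the TG-17 mice lay below the WT mice. Smad2, Smad3 and Smad4 had log2 differences of 0.020, 0.11 and 0.086 (standard errors 0.046, 0.092 and 0.048). The median of the list was 0.098. The list stood at 8 higher and none lower after centring, and at 4 higher and 1 lower after a second quantile normalization.

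Among 18 genes of latency and activation, 1 was higher, the integrin gene Itgb5, with a log2 difference of 0.19 (standard error 0.062). Itgb8, whose integrin activates latent TGF-beta, had a difference of -0.14 (standard error 0.073), and Ltbp1, which tethers it to the matrix, one of -0.081 (standard error 0.045), neither reaching that p. After centring the list held 2 higher genes, and after a second quantile normalization 2 lower and none higher. Among 15 secreted and membrane inhibitors, none was higher and 3 were lower, a share of 20%. Fst, which encodes follistatin, an antagonist of activin and myostatin, read 7.57, 7.51 and 7.45 in WT and 7.24, 7.28 and 7.21 in TG-17, a log2 difference of -0.27 (standard error 0.055, adjusted p = 0.224 from limma). Chrd, the BMP antagonist chordin, had a log2 difference of -0.17 (standard error 0.054) and the matrix proteoglycan gene Fmod one of -0.27 (standard error 0.097) with overlapping groups. After centring this list held 2 higher and 1 lower.

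Among 13 other ligands of the family, 1 was lower. Bmp5, a bone morphogenetic protein of the developing heart, read 7.35, 7.36 and 7.30 in WT and 7.09, 6.95 and 7.07 in TG-17, a log2 difference of -0.30 (standard error 0.060, adjusted p = 0.224 from limma). Inhbb and Gdf11 followed at -0.16 (standard error 0.090) and -0.13 (standard error 0.069) without reaching that p. Among 13 other CCN, thrombospondin and matricellular genes, 2 were lower, or 1 after centring and 1 after a second quantile normalization. The thrombospondin family gene Comp had a log2 difference of -0.26 (standard error 0.082), and Nov, a CCN gene, one of -0.35 (standard error 0.13) with overlapping groups. Wisp2, a further CCN gene, had a difference of -0.12 (standard error 0.062) and did not reach that p.

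**Figure D5:**
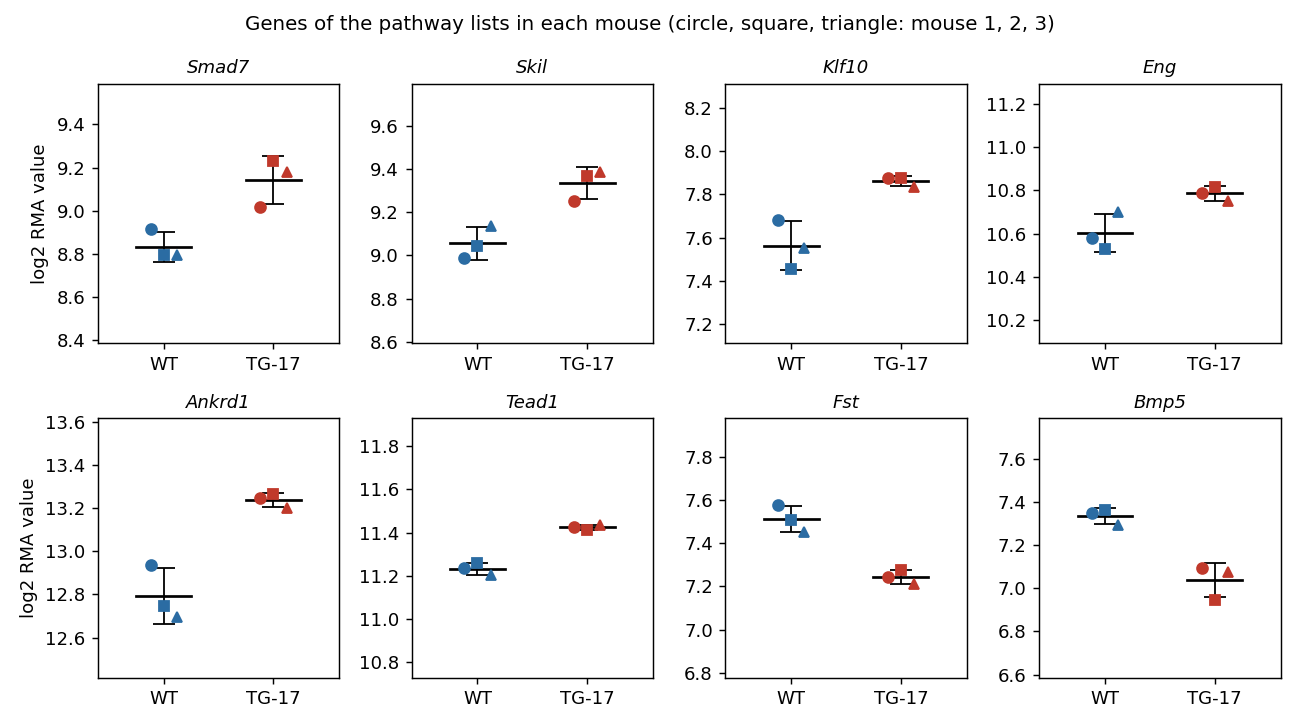
Log2 RMA values of 8 genes of the lists by mouse, with 3 WT mice in blue, 3 TG-17 mice in red, group means and 1 SD. Red points are all higher than blue ones for Smad7, Skil, Klf10, Eng, Ankrd1 and Tead1 and all lower for Fst and Bmp5.

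Among 15 genes known to respond to TGF-beta, 4 were higher and 2 lower, a share of 40%, and Smad7 and Skil are among the 4. Klf10, a factor induced early by TGF-beta, read 7.68, 7.45 and 7.55 in WT and 7.88, 7.88 and 7.83 in TG-17, a log2 difference of 0.30 (standard error 0.071, adjusted p = 0.228 from limma). Bhlhe40, named after its value was seen, was higher by 0.51 (standard error 0.16). The lower ones were the AP-1 gene Junb at -0.25 (standard error 0.073) and the smooth muscle actin gene Acta2 at -0.22 (standard error 0.073), likewise named afterwards. The matrix genes of the list did not reach that p. Col1a1, Col1a2, Col3a1 and Fn1 had log2 differences of -0.054, -0.047, -0.015 and 0.0067 (standard errors 0.067, 0.055, 0.053 and 0.059). Of 9 fibroblast markers none stood at an unadjusted p under 0.05, and their mean log2 value was 11.09 to 11.14 in WT and 11.12 to 11.18 in TG-17, although after centring 4 of the 9 were higher at that p. Of 8 smooth muscle and pericyte markers 3 were lower, Acta2 among them, and 1 was higher (1 lower and 2 higher after centring), with means of 10.12 to 10.24 in WT and 10.01 to 10.13 in TG-17. The part of smooth muscle cells in the Acta2 value was not tested.

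Among 22 genes of the Hippo pathway and the YAP-TEAD complex, which acts on Ctgf and Cyr61, 3 were higher and 1 lower, or 1 and 1 after a second quantile normalization. Ankrd1, a cardiac ankyrin repeat protein and YAP target, read 12.94, 12.75 and 12.69 in WT and 13.25, 13.26 and 13.20 in TG-17, a log2 difference of 0.44 (standard error 0.076, adjusted p = 0.220 from limma, B of -0.20). Tead1, a DNA-binding partner of YAP, read 11.24, 11.26 and 11.20 in WT and 11.43, 11.41 and 11.44 in TG-17, a difference of 0.19 (standard error 0.047). Stk4, a Hippo kinase, had a difference of -0.17 (standard error 0.049). Wwtr1, the YAP paralog TAZ, was higher by 0.15 (standard error 0.060) and was named after its value was seen, while Yap1 had a difference of 0.046 (standard error 0.056). Ctgf and Ankrd1 lay above the WT values in all TG-17 mice. Cyr61 lay below them, with an unadjusted p of 0.0631 from limma. The part of the YAP-TEAD complex in these values was not tested. Axl and Amotl2, other known targets named after their values were seen, had differences of 0.048 (standard error 0.057) and -0.026 (standard error 0.061).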

How the data were processed

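Ventricular RNA of each mouse was hybridised to its own Affymetrix Mouse Gene 1.0 ST array. The values deposited by the authors are on the log2 scale, 1 for each probe set, and come from RMA per the labels (background correction, quantile normalization, probe summary). Its version is not given in the sources consulted. All 35556 probe sets and all 6 columns were used as deposited. Probe sets were named through the platform annotation, with symbols updated by Entrez identifier through RefSeq (GRCm38.p6). Of a gene's probe sets with exactly 1 symbol, the one with the highest mean was taken. The 8 genes, the lists and the tests were chosen with earlier results of these data known.

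Both groups entered 1 linear model (limma 3.58.1, R 4.3.3, lmFit and eBayes with an assumed share of 0.01), and exact two-sided permutation tests were run per gene. No filter was applied. The code was tested on simulated data. All 8 genes were named, with up to 3 genes per list by smallest unadjusted p. Groups come from the sample titles and the line from the paper. Mice are separate animals, and precision is limited by having 3 arrays a group. Pearson's r between arrays was 0.990 to 0.994, and no pair was a duplicate. Of 150 listed genes 7 were not found with 1 symbol. The alternatives comprised dropping dim probe sets, annotated probe sets only, 2 other scalings, trend, robust and no moderation, array weights, a replicate block, a share of 0.05, the mean over probe sets and leaving out each mouse.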

Additional observations from a re-analysis of the deposited data

How the results depend on the processing

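None of the 8 genes passed B above 0 under any of the alternatives (an adjusted p of 0.05 without moderation, which gives no B). Mstn has no value with the dim filter. Tgfb1, Tgfb2, Tgfb3, Ctgf, Cyr61 and Thbs1 kept their direction in all 17. Mstn turned to 0.047 with arrays centred, 0.037 after a second quantile normalization and 0.0076 with array weights, and Inhba to -0.011 with array weights. With 1 mouse left out Mstn was -0.076 to 0.049 and Inhba -0.072 to 0.059. The number of the 8 at an unadjusted p under 0.05 was 2 with the dim filter, with annotated probe sets only and with a trend, 0 without moderation, and 0 to 1 with 1 mouse left out, and after a second quantile normalization the 1 gene was Cyr61 instead of Ctgf. Probe sets at B above 0 (130) became 287 with a trend, 714 with a share of 0.05 and 29 (TG-17 replicate 2) to 112 with 1 mouse left out. Those at an adjusted p under 0.05 (2) became 52 with the dim filter, 6 with annotated probe sets, 26 with a trend, 0 without moderation and 0 to 1 with 1 mouse left out. List genes at B above 0 (2) became 4 with annotated probe sets, 1 after a second quantile normalization, 4 with a trend, 0 without moderation, 7 with a share of 0.05 and 0 to 2 with 1 mouse left out. Centring the arrays raised the share of higher probe sets at B above 0 from 42.3% to 70.6%. The cause of these changes was not tested.

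Whether mice with the same number in both groups share a litter or batch is not given by the sample titles. Their deviations from the group means correlated at 0.024, -0.00044 and 0.057, and those of mice with different numbers at -0.057 to 0.034. With 3 arrays per group these values cannot decide whether such mice share more than the number. With the replicate block B was above 0 for 69 probe sets and 1 list gene, 0 probe sets had an adjusted p under 0.05 (limma, 130 and 2 without it), and the log2 difference of Ctgf of 0.29 had an unadjusted p of 0.0123 and an adjusted p of 0.323 from limma. The precision is limited by the 3 arrays per group, and dim genes such as Mstn by signal near background.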

Other observations

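Markers of other cell types were set beside the ligands, and the following values were chosen after they were seen. Among 8 leukocyte markers, the lysozyme gene Lyz2 of macrophages differed by 0.27 on the log2 scale (standard error 0.050) and the T cell gene Cd3e by -0.27 (standard error 0.049), each with an adjusted p of 0.221 from limma. The other macrophage and myeloid markers of the list did not reach an unadjusted p under 0.05 from limma. Cd68, Itgam, Adgre1 and Csf1r had log2 differences of -0.12, -0.024, 0.0062 and 0.058 (standard errors 0.096, 0.10, 0.073 and 0.053). Cd3e was dim, with means of 6.87 in WT and 6.60 in TG-17, below the median of every array (6.89 to 6.95). The mean over the leukocyte list was 7.41 to 7.51 in WT and 7.45 to 7.48 in TG-17. Among the smooth muscle and pericyte markers, the contractile gene Myh11 had a difference of -0.31 (standard error 0.070) and the channel subunit gene Abcc9 one of 0.24 (standard error 0.050). None of 8 endothelial and none of 8 ventricular markers stood at an unadjusted p under 0.05, although 3 and 2 were higher at that p with arrays centred on their medians. Of 6 atrial markers 5 were lower at that p (3 with arrays centred), 2 of them at B above 0, and the mean of the list was 8.86 to 9.03 in WT and 8.55 to 8.63 in TG-17.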
